A study of Mus musculus with 6 samples.

Results

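Genes that carry retinol, turn it into retinoic acid and read that signal were followed in mouse hearts with an excess of the prokineticin receptor PKR1 in their cardiomyocytes. The group held 9 genes, chosen by name with earlier results of these data known, Rbp4, Stra6, Crabp2, Aldh1a1, Aldh1a2, Aldh1a7, Rara, Rarb and Rarg, and took in all their probes whatever the measured values. These were 9 of the 27597 gene names on the array and 13 of its 41174 probes other than controls. Of the 13 probes, 6 were among the 20000 brightest probes, over which the statistics were made, and they came from 6 of the 9 genes.

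The hearts came from 3 wild type (WT) and 3 TG-PKR1 male mice aged 12 weeks. TG-PKR1 mice carry PKR1 under the alpha myosin heavy chain promoter, which drives expression in cardiomyocytes. RNA of each heart was labelled with the dye Cy3 and placed on 1 single-colour Agilent array. The comparison asks which of the retinoid genes differ between hearts with and without the extra receptor. Hearts are named here by group and number, and these numbers pair no hearts.

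Retinol leaves its stores bound to retinol binding protein, the product of Rbp4, and enters many cells through the membrane protein STRA6. Inside the cell, retinol is oxidised to retinaldehyde and then, by retinaldehyde dehydrogenases such as those of Aldh1a1 and Aldh1a2, to retinoic acid. CRABP2 brings retinoic acid to the nucleus, where the receptors RARα, RARβ and RARγ bind DNA together with retinoid X receptors and switch target genes. In the heart the pathway is best known for its role in development, where Aldh1a2 in the epicardium is a main source of the signal, and adipose tissue is, after the liver, a known source of Rbp4.

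For the 4 genes on which the comparisons turn, the 100 bases before a transcription start are printed. They were read from RefSeq on GRCm38.p6, which held at least 1 start for 8 of the 9 genes, and each is written 5′ to 3′ on the strand of its gene. Of several starts, the one lying furthest into the gene was taken. In Rbp4 (chr19:38124812-38124911, minus strand), capitals mark the letters TATAAA, found 28 to 23 bases before the start. These letters were present, on either strand, in 5.56% of the 32851 stretches of 100 bases before a start in the table.
Rbp4: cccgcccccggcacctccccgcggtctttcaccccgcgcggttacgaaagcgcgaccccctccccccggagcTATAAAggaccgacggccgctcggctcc

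Aldh1a1 (chr19:20601868-20601967, plus strand) and Aldh1a7 (chr19:20727557-20727656, minus strand) are neighbours on chromosome 19, and Aldh1a7 is a rodent relative of Aldh1a1. Aldh1a7 is listed here with the dehydrogenases, and whether its product acts on retinaldehyde was not tested in these data. Set base against base without gaps, the 100 bases before their starts were equal at 94 positions, and capitals mark the 6 that differ. Aldh1a1 and Aldh1a2 were equal at 20 of 100 positions.
Aldh1a1: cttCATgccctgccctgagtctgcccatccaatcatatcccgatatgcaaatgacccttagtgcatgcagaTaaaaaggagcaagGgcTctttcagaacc
Aldh1a7: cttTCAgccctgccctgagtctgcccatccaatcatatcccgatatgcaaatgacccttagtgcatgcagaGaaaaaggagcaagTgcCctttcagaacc

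Rarb (chr14:16575477-16575576, minus strand) is known as a gene that retinoic acid itself induces. Retinoic acid receptors and their partners bind pairs of a motif of 6 bases that point the same way. The letters AGGTCA, the letters AGTTCA, the letters GGGTCA and the letters GGTTCA were searched on both strands in the 250 bases before each start, as pairs with 1, 2 or 5 bases between them. Among the starts of the members, only that of Rarb held such a pair, with 5 bases between its motifs, 53 to 37 bases before the start, marked in capitals. A pair with 5 bases between was found before 0.0883% of the 32851 starts, and a pair of any of the 3 spacings before 0.426%. The match is one of letters, and binding was not measured in these data.
Rarb: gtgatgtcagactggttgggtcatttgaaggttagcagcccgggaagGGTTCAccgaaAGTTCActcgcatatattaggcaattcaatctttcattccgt

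By the marks of the scanner software, 19662 to 24944 probes per heart stood well above background. An extended dynamic range was used to scan WT 1, TG 2 and TG 3, and a single scan for the other hearts, and WT 2 and TG 1 shared a slide. Genes that define the labelled tissue were bright in every heart, such as Myh6, a myosin of cardiomyocytes, with log2 values of 16.52 to 17.75 at its brighter probe. WT 1 also held a strong signal of the surfactant gene Sftpc, a marker of lung epithelium (10.77, against 5.83 to 5.995 in the other hearts), and TG 2 one of Scgb1a1, a marker of airway cells (8.92, against 6.15 to 6.43). PKR1 is the product of Prokr1, whose probe was well above background on 0 of 6 arrays and so gave no check of the genotypes. With 3 hearts against 3, the smallest p of a two-sided exact permutation test is 0.1. The p-values of limma were adjusted over all 20000 probes by Benjamini-Hochberg. They weigh a difference against the spread between these hearts only, with the variance of each probe moderated over all probes tested.

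Of the 6 member probes tested, that of Rbp4 was lower in TG-PKR1 hearts at a limma adjusted p under 0.05, where 0.095% of all probes tested were called lower. Rbp4 was already known from earlier results of these data to pass. The shares over all probes given here are therefore a description and not a test of the members. None of the 6 was higher, as for all probes tested (0%). SAM, significance analysis of microarrays, called 2 of the 6 lower, Rbp4 and Aldh1a7, against 0.281% of all probes. The same 2 probes lay in every TG-PKR1 heart below every WT heart, as did 2.73% of all probes, and had an unadjusted limma p under 0.05 on the lower side, as did 1.66%. The probe of Rarb lay in every TG-PKR1 heart above every WT heart, as did 2.68% of all probes, and had an unadjusted limma p under 0.05 on the higher side, as did 0.715%. Differences are given throughout as the TG-PKR1 mean minus the WT mean on the log2 scale. Over all 13 member probes their median was 0.05, with 5 probes lower and 8 higher in mean, beside a median of 0.01 over all probes other than controls, of which 55.8% were higher in mean. The group thus held a carrier called lower by limma and SAM, and Aldh1a7, a relative of Aldh1a1, called lower by SAM alone. Probes of the other members overlapped between groups or lay higher in TG-PKR1 hearts without a call.

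**Figure D1:**
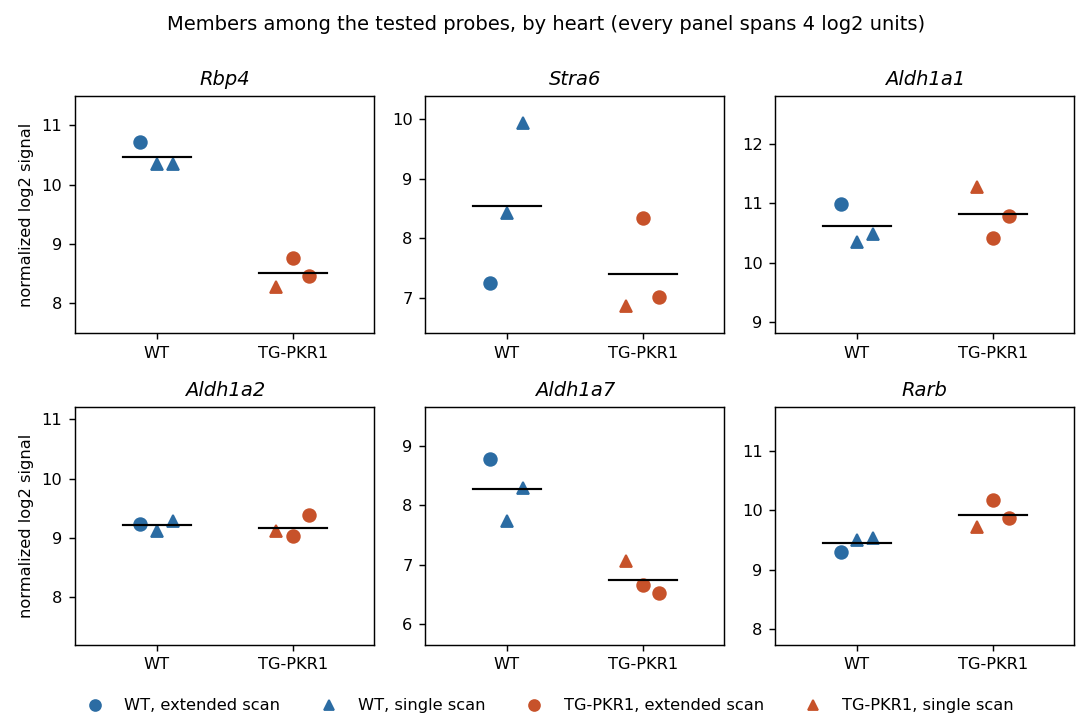
Normalized log2 signal of the 6 tested member probes in each heart, for WT (blue) and TG-PKR1 (orange). Circles are arrays scanned with an extended range, triangles single scans, and lines group means. The 3 TG-PKR1 hearts lie below the 3 WT hearts for Rbp4 and Aldh1a7 and above them for Rarb, and the groups overlap for Stra6, Aldh1a1 and Aldh1a2.

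Among the carriers, Rbp4 was clearly lower in TG-PKR1 hearts. Its probe lies on the minus strand of chromosome 19 (mm8, chr19:38181783-38181842) and was well above background on all 6 arrays. Its median signal was 2.42 to 58.6 times the local background, lowest in TG 1 and next lowest in WT 2 (6.79). The normalized log2 signal of Rbp4 was 10.71, 10.35 and 10.34 in WT 1, 2 and 3, and 8.28, 8.77 and 8.47 in TG 1, 2 and 3. The groups were apart by far more than the spread within either, an SD of 0.21 over the WT and of 0.25 over the TG-PKR1 hearts (n = 3 each). Rbp4 fell by 1.96 on the log2 scale (SE 0.19, 95% interval from -2.39 to -1.54, limma adjusted p = 0.0339), and the WT signal was 3.90-fold higher. By p it ranked 2 of the 20000 probes, and by the size of its fall 21. The difference was -2.09 among the extended scans, -2.06 among the single scans and -2.07 on the slide shared by WT 2 and TG 1. With scan mode as a block the difference was -2.08 and the limma adjusted p, 0.0885, was above the threshold, as it was with the table of the authors (0.0942), with all 41174 probes tested (0.228), with 75th percentile scaling (0.130) and with only the probes that at least 3 arrays measured well above background (0.0567). The adjusted p also rose above the threshold without WT 1 (difference -1.84, limma adjusted p = 0.172), and likewise without WT 3 (0.104), TG 1 (0.0727) or TG 3 (0.129), but not without WT 2 (0.0377) or TG 2 (0.0431). With the background-subtracted signal scaled to the 75th percentile, Rbp4 differed by -2.32 (limma adjusted p = 0.0339). The whole heart was measured, so that fewer cells of a type and less RNA per cell cannot be told apart.

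Stra6, the receptor through which cells take up retinol from its binding protein, varied more between hearts than almost any other gene. Its probe (mm8, chr9:57950709-57951320, plus strand, spanning 612 bases) gave log2 values of 7.25, 8.42 and 9.93 in WT 1, 2 and 3, and 6.87, 8.33 and 7.01 in TG 1, 2 and 3. WT 3 was the highest heart and TG 1 the lowest, and the groups overlapped. The SD over WT hearts, 1.34, was at the 99.6th percentile of all probes tested, and that over TG-PKR1 hearts, 0.81, at the 98.9th. Its group difference was -1.13 (SE 0.64, 95% interval from -2.58 to 0.32, limma adjusted p = 1.0). It was 0.42 among the extended scans and -2.31 among the single scans, so that the sign did not hold within scan modes. It was -0.43 without WT 3, -1.77 without WT 1 (limma adjusted p = 0.890) and -1.60 without TG 2 (limma adjusted p = 0.828). Stra6 was dim, with a median signal of 1.28 to 12.0 times the local background on the 6 arrays.

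Crabp2, whose product hands retinoic acid to its receptors, was well above background on 0 of 6 arrays and stood outside the 20000 probes. Its log2 values (mm8, chr3:88034687-88034746, plus strand) were 5.80, 5.84 and 5.81 in WT hearts and 5.77, 5.76 and 5.81 in TG-PKR1 hearts. These are values of the background, and a difference in Crabp2 was not detectable on these arrays.

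Of the 3 dehydrogenases, only Aldh1a7 had groups that did not overlap, and limma called none at the threshold. Aldh1a7 (mm8, chr19:20760160-20760219, minus strand) had log2 values of 8.79, 7.73 and 8.28 in WT 1, 2 and 3, and 7.06, 6.66 and 6.53 in TG 1, 2 and 3. Every TG-PKR1 heart was below every WT heart, with a gap of less than 1 log2 unit between TG 1 and WT 2. The difference was -1.52 (SE 0.27, 95% interval from -2.14 to -0.90), a signal 2.86-fold higher in WT hearts. SAM called it lower, and limma did not at the threshold over all probes (adjusted p = 0.180). It was -2.19 among the extended scans, -0.95 among the single scans and -0.67 on the shared slide. Without WT 1, the heart with the Sftpc signal and the highest Aldh1a7 value, the difference was -1.26 (limma adjusted p = 0.440). With the background-subtracted signal scaled to the 75th percentile, it was -2.36 and passed the threshold (limma adjusted p = 0.0339). Aldh1a7 was dim on some arrays, with a median signal of 1.45 to 15.6 times the local background.

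Aldh1a1, its neighbour with the nearly equal stretch before the start, showed no such gap between the groups. Its probe (mm8, chr19:20710371-20710430, plus strand) gave log2 values of 10.997, 10.36 and 10.49 in WT 1, 2 and 3, and 11.27, 10.42 and 10.78 in TG 1, 2 and 3. The groups overlapped over most of their range. The difference was 0.21 (SE 0.25, 95% interval from -0.37 to 0.79, limma adjusted p = 1.0), with -0.40 among the extended and 0.85 among the single scans. On the same array, Aldh1a7 minus Aldh1a1 was -2.21, -2.62 and -2.20 in WT hearts and -4.21, -3.76 and -4.25 in TG-PKR1 hearts. The 2 ranges do not overlap, and the difference between them was -1.73 (two-sided exact permutation p = 0.1, the smallest possible). Whether either probe also binds the transcript of the other gene was not tested, since the probe sequences were not used here.

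Aldh1a2, the enzyme of the epicardium, spread little between hearts. It had log2 values of 9.24, 9.11 and 9.29 in WT 1, 2 and 3, and 9.11, 9.03 and 9.39 in TG 1, 2 and 3 (mm8, chr9:71094684-71094743, plus strand). TG 3 was the highest and TG 2 the lowest of the 6 hearts. The difference of -0.04 (SE 0.16, limma adjusted p = 1.0) had a 95% interval from -0.39 to 0.32, which leaves out changes as large as that of Rbp4. Epicardial and mesothelial marker genes, among them Wt1 and Upk3b, gave a median log2 difference of -0.14 over 13 tested probes. Of these, 0 passed the threshold of limma, adjusted or not, while 3 lay in every TG-PKR1 heart below every WT heart, where 2.73% of all probes did, and 10 of the 12 genes of the list were lower in mean.

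**Figure D2:**
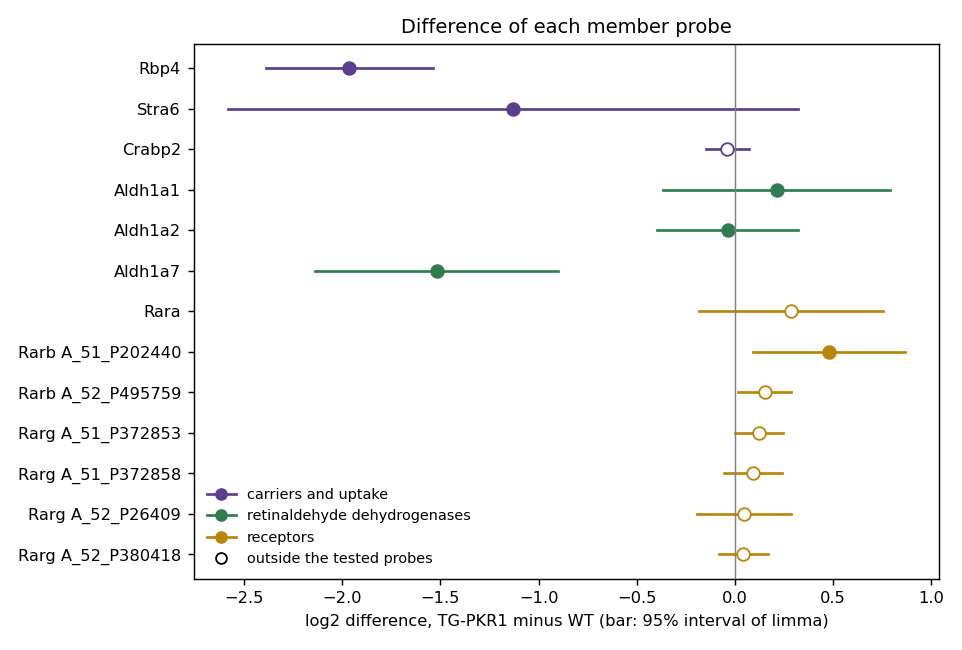
Log2 difference (TG-PKR1 minus WT) of all 13 member probes, coloured by role, with 95% intervals from limma. Open circles are probes outside the 20000 brightest, with intervals from the fit over all 41174 probes. Rbp4 (-1.96) and Aldh1a7 (-1.52) have intervals below 0, and all 7 receptor probes have a difference above 0.

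The receptors were dim but for a single probe, which belongs to Rarb and is printed on the array in 10 spots (mm8, chr14:15224264-15224323, minus strand). It gave log2 values of 9.31, 9.502 and 9.53 in WT 1, 2 and 3, and 9.72, 10.18 and 9.87 in TG 1, 2 and 3. TG 2 was the highest heart and the groups did not overlap, although TG 1 and WT 3 were close. The difference was 0.48 (SE 0.17, 95% interval from 0.09 to 0.87), a 1.39-fold higher signal in TG-PKR1 hearts with an unadjusted limma p of 0.0211. It did not pass the threshold after adjustment (limma adjusted p = 1.0), and SAM did not call it. The value was 0.72 among the extended and 0.20 among the single scans. Without TG 2, the heart with the Scgb1a1 signal, it was 0.35 (limma adjusted p = 0.833).

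The other 6 receptor probes were outside the 20000. A second probe of Rarb (mm8, chr14:15341785-15368493, a span of 26709 bases that takes in an intron) had values of 6.20, 6.22 and 6.09 in WT 1, 2 and 3 and of 6.33, 6.35 and 6.29 in TG 1, 2 and 3. The groups did not overlap, with a difference of 0.15 close to the floor of the array. Rara, the receptor found in most tissues (mm8, chr11:98786635-98786694, plus strand), was 6.05, 6.07 and 6.01 in WT 1, 2 and 3 and 6.14, 6.76 and 6.09 in TG 1, 2 and 3. It was well above background on 0 of 3 WT and 2 of 3 TG-PKR1 arrays. The difference was 0.29 (all-probe limma adjusted p = 1.0), and 0.069 without TG 2.

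Rarg was represented by 4 probes with differences of 0.12, 0.09, 0.05 and 0.04, all with a limma adjusted p of 1.0 over all probes. In 1 of them (mm8, chr15:102063912-102063971, minus strand) every TG-PKR1 heart, at 6.34, 6.35 and 6.41, was above every WT heart, at 6.24, 6.29 and 6.21. The Rarg probes that were well above background on 0 of 3 WT arrays were so on 2 and 1 of 3 TG-PKR1 arrays, and their groups overlapped. Of the 6 dim receptor probes, 3 thus had no overlap on the higher side, where 4.63% of the 22186 probes not well above background on all arrays did. All the differences of the 6 dim probes turned below 0 when each array was scaled by its 75th percentile and not by loess, from -0.50 to -0.21, so their direction depends on the normalization. That of the bright Rarb probe was then 0.55.

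The group difference of Rbp4 was set against that of each other tested member on the same arrays, in 5 pairs. Rbp4 minus the other gene gave -2.17 for Aldh1a1, -1.93 for Aldh1a2 and -2.44 for Rarb, and the within-array values of the groups did not overlap (two-sided exact permutation p = 0.1, 0.167 after adjustment over the 5 pairs). Against Stra6 (-0.83) and Aldh1a7 (-0.44) the values overlapped, with an exact permutation p of 0.5 for each. With 3 hearts per group no pair could reach 0.05 in this test, so that whether the differences of Rbp4 and Aldh1a7 differ in size is not answered by it.

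The rest of the pathway was described by 69 further genes in 8 lists, of which 68 had a probe and 44 a tested one. Of 72 tested probes, limma called 0 lower and 0 higher, with 4 lower and 1 higher at an unadjusted p under 0.05, and SAM called 1 lower and 0 higher. The median log2 difference of the 72 probes was 0.04, beside 0.03 over all probes tested. In 5 probes of 3 genes the TG-PKR1 hearts lay below the WT hearts without overlap, and in 0 above them. Over all probes tested the shares were 2.73% below and 2.68% above without overlap, and 1.66% lower and 0.715% higher at an unadjusted limma p under 0.05. No probe of a retinol dehydrogenase or of a partner of the receptors was called by either test.

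**Figure D3:**
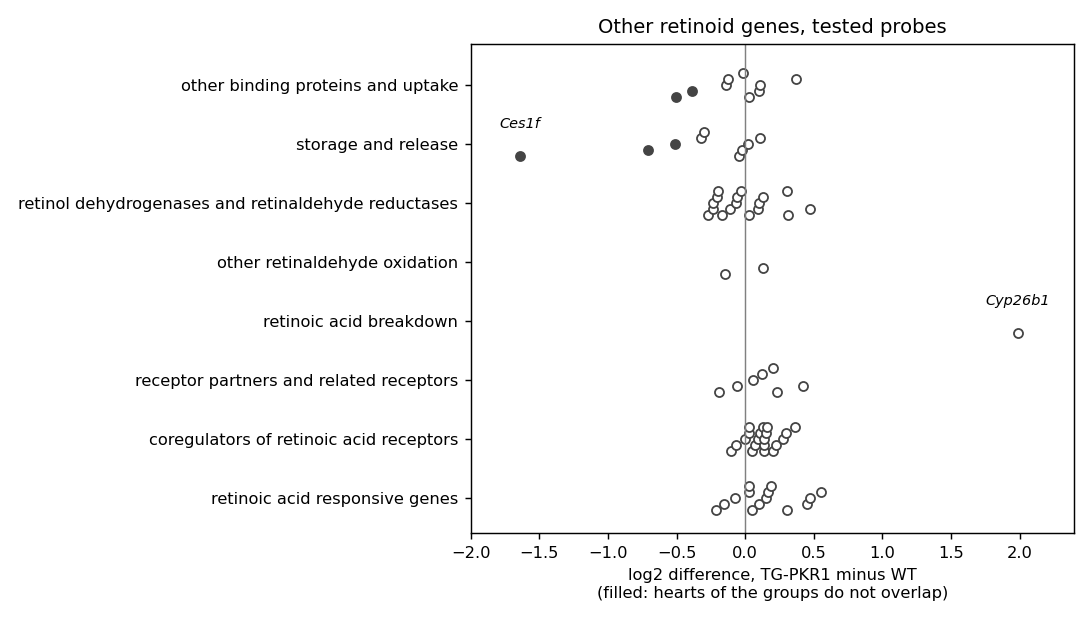
Log2 difference (TG-PKR1 minus WT) of the tested probes of 8 lists of other retinoid genes, 1 circle per probe. Filled circles mark the 5 probes whose hearts do not overlap between groups, all lower in TG-PKR1 hearts, Ces1f (-1.64) the most. Cyp26b1 (1.99) rests mainly on 1 heart.

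Of 9 tested probes of storage and release, limma called 0 and SAM 1, that of Ces1f. Ces1f, a carboxylesterase of the family that splits retinyl esters and other lipids, had log2 values of 8.91, 8.87 and 8.29 in WT 1, 2 and 3 and of 7.12, 7.44 and 6.60 in TG 1, 2 and 3. All TG-PKR1 hearts were well below the WT hearts, with a difference of -1.64 (SE 0.25, limma adjusted p = 0.1005), and SAM called it. Its relative Ces1d differed by -0.05 (limma adjusted p = 1.0). Lipe, hormone-sensitive lipase, which frees retinol from its esters in fat cells, differed by -0.71 and -0.51 at its 2 tested probes (limma adjusted p = 1.0 for each). WT 1 stood out on the high side there at 9.18 and 9.26, and among the single scans the differences were -0.20 and -0.03. Lpl, lipoprotein lipase and the brightest of the list, differed by 0.02 (SE 0.21).

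Among the other proteins of binding and uptake, Lrp2, the endocytic receptor megalin, was lower at both of its tested probes without overlap. The brighter of them read 7.43, 7.28 and 7.42 in WT 1, 2 and 3 and 6.65, 7.02 and 6.93 in TG 1, 2 and 3. The log2 difference was -0.51 (SE 0.16), above the threshold in the test (limma adjusted p = 1.0). Cd36, a fatty acid transporter and the brightest of this list, differed by -0.02 (SE 0.20).

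Of the retinol dehydrogenases and retinaldehyde reductases, 17 probes had a median of -0.06, and the brightest, Dhrs7, differed by -0.21 (SE 0.16). Aox1, an oxidase that accepts retinaldehyde, differed by -0.15 (SE 0.17). The partners of the retinoic acid receptors had a median of 0.12 over 7 probes, with Rxrg, the retinoid X receptor of muscle, at 0.12 (SE 0.16). Coregulators had a median of 0.13 over 20 probes. Genes known to respond to retinoic acid had a median of 0.13 over 14 probes, with Tgm2, a transglutaminase, at 0.19 (SE 0.18) at its brightest probe. Its other tested probes, both highest in TG 1, differed by 0.55 (SE 0.35) and 0.45 (SE 0.29), without a call.

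Cyp26b1, an enzyme that breaks down retinoic acid, was the only tested gene of its list. It read 7.26, 7.56 and 7.45 in WT 1, 2 and 3 and 7.55, 12.18 and 8.49 in TG 1, 2 and 3. TG 2 was far above all other hearts, TG 3 second, and TG 1 just below the highest WT heart. The mean difference was 1.99 (SE 0.98, limma adjusted p = 1.0), and 0.60 without TG 2. TG 2, the heart with the Scgb1a1 signal, was also the highest heart for Rara and for both probes of Rarb.

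Marker genes of fat cells moved in the same direction as Rbp4 and Aldh1a7. Of 13 adipocyte genes, 12 were lower in mean in TG-PKR1 hearts, 12 were well above background in every heart, and 3 of 19 tested probes were called by limma and 8 by SAM. Over all probes, limma called 0.095% lower and SAM 0.281%. The log2 of the summed signal of the list was 17.84 to 18.35 in WT and 17.45 to 17.59 in TG-PKR1 hearts. The mean log2 value of the list relative to WT was -0.14 to 0.10 in WT and -1.22 to -0.97 in TG-PKR1 hearts. Of the defining genes, Adipoq (adiponectin) differed by -1.93, Plin1 (perilipin) by -2.25 and Cidec, of the lipid droplet, by -2.02, all called by limma (adjusted p from 0.0339 to 0.0386), and Fabp4 by -0.77 to -0.69 at 3 probes, which were not called. The list shares Lipe, Lpl and Cd36 with the lists of the pathway above.

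Among brown adipocyte genes, 1 of 12 tested probes was called lower by limma and 4 by SAM, with a median difference of -0.18 over the 12. The shares called lower over all probes were 0.095% by limma and 0.281% by SAM. Of the 10 genes, 8 were lower in mean in TG-PKR1 hearts. Their summed log2 signal, 17.92 to 18.50 in WT and 17.75 to 18.06 in TG-PKR1 hearts, overlapped between groups, and their mean relative to WT was -0.09 to 0.10 in WT and -1.13 to -0.79 in TG-PKR1 hearts. Cox7a1, the brightest gene of the list, weighed most in that sum. It read 16.997 to 17.87 in WT and 17.06 to 17.52 in TG-PKR1 hearts, with a difference of -0.07. Which cells of the whole heart gave its signal was not measured. Ucp1, the uncoupling protein, differed by -3.23 (SE 0.42, limma adjusted p = 0.0445), Cidea, of the lipid droplet, by -1.77 and Dio2, a deiodinase, by -1.39, both called by SAM alone, while Ppargc1a was called by neither (0.49 and 0.43 at its 2 probes). Of the cardiomyocyte, fibroblast, endothelial, smooth muscle, macrophage and epicardial lists, limma and SAM called 0 probes, 0 had an unadjusted limma p under 0.05, and their medians ranged from -0.14 to 0.16. In mean, 0 of 10 cardiomyocyte, 7 of 10 fibroblast, 4 of 10 endothelial, 3 of 6 smooth muscle and 5 of 8 macrophage genes were lower in TG-PKR1 hearts, beside the 10 of 12 epicardial genes. The part of fat cells in the values of Rbp4 and Aldh1a7 was not tested.

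**Figure D4:**
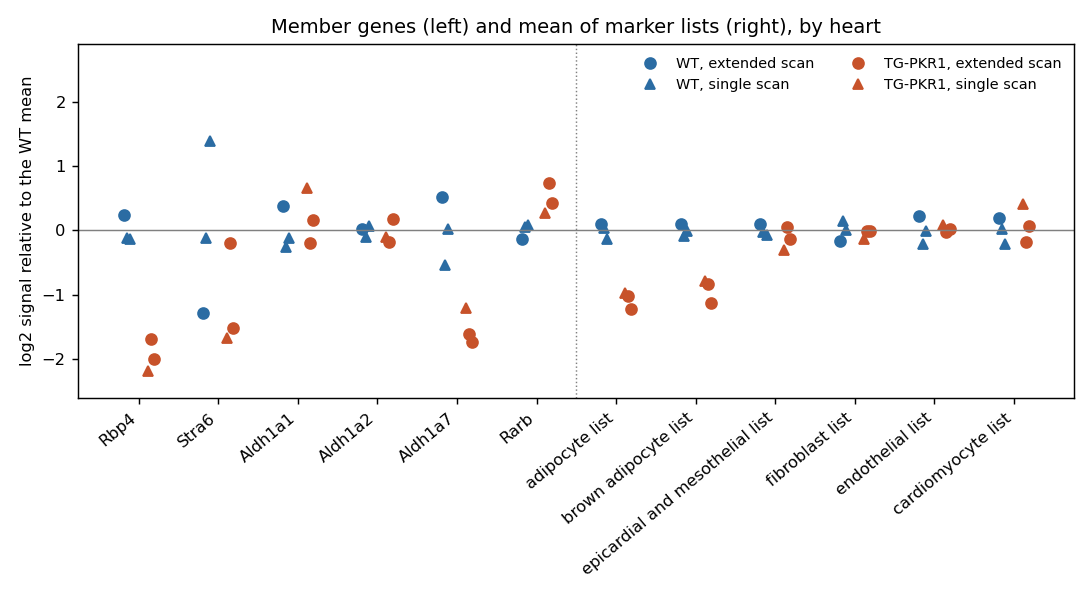
Log2 signal relative to the WT mean in each heart, for 6 member genes (left) and for the mean of 6 lists of cell type markers (right). Blue is WT, orange TG-PKR1, circles extended and triangles single scans. Rbp4, Aldh1a7 and the 2 adipocyte lists lie below 0 in all 3 TG-PKR1 hearts, by 0.79 or more.

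The genes most like the members over the 6 hearts were sought among 18789 probes of other genes well above background on all arrays, by Pearson's r of log2 values. For Rbp4, where the contrast of the groups makes up most of the variation, they were Vat1l (r = 0.998), Scn3b (0.989), Amz1 (0.988), Hacd2 (0.984) and Letmd1 (0.982), with Plin1 and Adipoq 7th and 8th (0.979 each). The differences of the first 5 between the groups ranged from -0.16 for Amz1 to -1.62 for Letmd1, and those of Plin1 and Adipoq were -2.25 and -1.93. For Aldh1a1, which did not follow the groups, the closest were Vwa1 (0.997), Hrc, a calcium-binding protein of the sarcoplasmic reticulum (0.994), and H19 (0.994). For Aldh1a2 they were Itgal (0.988), Ppp1r2 (0.987) and Snx24 (0.985). For Aldh1a7, given after its values were seen, they were Cdo1 (0.998), Car13 (0.996), Acaca, an enzyme of fatty acid synthesis (0.995), Akr1c13 (0.995) and Aspg (0.995), with differences between the groups from -0.47 for Akr1c13 to -2.18 for Aspg. Fatty acid genes Scd1 and Fasn were 6th and 7th. The closest to Stra6 was Nsun6 (0.993) and to Rarb Phf12 (0.989), likewise given after their values were seen. With 6 points per gene and so many genes, values of this size are a description of these hearts only. Between members, r was 0.915 for Rbp4 with Aldh1a7 and 0.023 for Aldh1a7 with Aldh1a1.

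**Figure D5:**
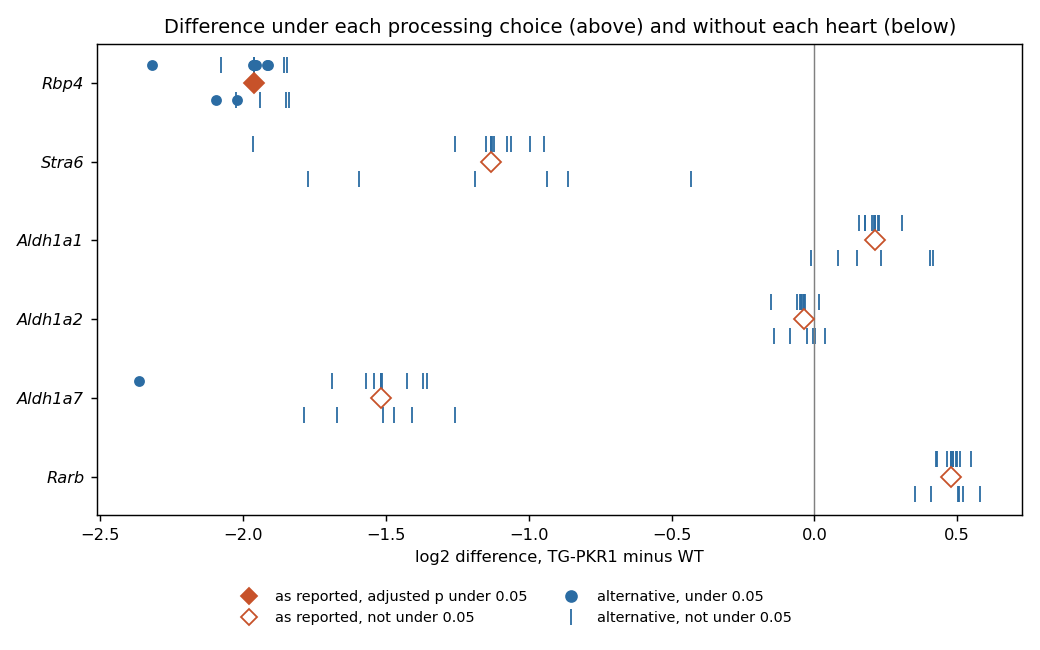
Log2 difference (TG-PKR1 minus WT) of the 6 tested members as reported (diamonds), under other processing (upper marks) and without each heart in turn (lower marks). Round or filled marks have a limma adjusted p under 0.05. Rbp4 stays between -2.32 and -1.84 and Aldh1a7 between -2.36 and -1.26, while Aldh1a1 and Aldh1a2 cross 0.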

How the data were processed

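RNA of 6 hearts was measured on single-colour arrays. Spot intensity values without normalization between arrays were deposited by the authors as extracted with Agilent Feature Extraction 9.5.1.1. A second deposited file holds log2 values that the authors normalized by LOWESS to a median profile, with repeated probes averaged and dim ones removed. The deposited marks of the scanner software for each spot (control, outlier, saturated, well above background) were used as given. The depth of the measurement is limited by signal over background and by the number of arrays.

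The median signal of each spot, with no background subtracted, was taken to log2. Spots marked as controls or outliers were dropped. Loess (span 0.3, 4 iterations) brought each array to the median profile of all 6, fitted along the mean of the array and that profile, repeated spots were averaged, and the 20000 probes of highest median entered the tests. Groups were compared in R 4.3.3 with limma 3.58.1 (lmFit, eBayes), reading files through data.table (version 1.17.8), and p-values were adjusted by Benjamini-Hochberg, with 0.05 as threshold. SAM used all 20 assignments and the smallest delta whose estimated false discovery rate was 0. No bound on a fold is given for probes not well above background in a group, since their direction turned with the normalization. Procedures were tested on simulated data.

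Positions of probes come from the files and are in mm8. RefSeq tables of GRCm38.p6 gave gene symbols (15334 of the 20000 probes by accession, 3039 by name, and 1627 kept the name in the files) and the sequences before starts.

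The members, lists and tests were chosen with earlier results of these data known. Of other pathway genes, those named passed the threshold, or did not overlap between groups with a difference over 0.5 log2 units, or had the brightest probe of a list; some items are not reported here. Of marker lists the first 4 genes could be named, and of genes alike in pattern the first 5 for Rbp4 and 3 for Aldh1a1 and Aldh1a2. Ces1d, Cox7a1, Plin1 and Adipoq among the alike, and the genes alike to Aldh1a7, Stra6 and Rarb, were added after their values were seen. Alternatives changed the signal column, background correction, normalization, filters, source of values, eBayes settings, test, threshold, probe summary, scan mode as a block, and each heart left out. The lists of hepatocyte, erythroid and lung epithelium markers had 2, 2 and 0 tested probes, of which 0 were called.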

Additional observations from a re-analysis of the deposited data

How the results depend on the processing

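No paired analysis was run, since the labels state no pairs of WT and TG-PKR1 hearts. In the titles, the number before the point is shared across groups by WT 2 and TG 1 alone, which lie on the same slide. The number after the point recurs in both groups. The meaning of these numbers is not stated. Slide as a random block could not be fitted, since 1 slide held more than 1 array. The Rbp4 difference was -1.96 as reported and stayed negative in all 19 alternatives run. Its limma adjusted p left the threshold with 75th percentile scaling (-1.85), all probes other than controls (-1.96), a filter for signal well above background on at least 3 arrays (-1.96), the table of the authors (-1.86) and scan mode as a block (-2.08), and over all alternatives it ranged from 0.0149 to 0.228. Without single hearts it was -2.10 to -1.84. The number of members called lower was 1 as reported, 2 with the processed signal and with SAM, and 0 with 75th percentile scaling, all probes, a filter for signal well above background on at least 3 arrays, the table of the authors and scan mode as a block. It was 0 to 1 without single hearts. The number of other pathway probes called lower, 0 as reported, was 1 with quantile normalization, trend and robust eBayes, and SAM. Calls among all probes, 19 as reported, were 28 at an adjusted p under 0.1 and 56 with SAM, and by limma at 0.05 ranged from 0 to 33 (0 with 75th percentile scaling, all probes, the filter on at least 3 arrays, the table of the authors and scan mode as a block, and without WT 1, WT 3, TG 1 or TG 3, 8 without TG 2, 33 with quantile normalization), and loess fitted along the median profile alone, chosen after seeing the data, gave 2.

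The median over member probes, 0.05 as reported, was 0.22 with the processed signal, -0.36 with 75th percentile scaling, -0.52 in the table of the authors, which held 6 of the 13 probes (the 6 tested probes gave -0.58 as reported) and 0.093 with loess along the median profile alone, and 0.019 to 0.082 without single hearts. With 75th percentile scaling the sign turned for Aldh1a2 (0.015), Rara (-0.21), the dim Rarb probe (-0.32) and the 4 Rarg probes (-0.32, -0.42, -0.36 and -0.50). Rarg probe A_52_P26409 also turned with the processed signal (-0.086), normexp (-0.038), quantile normalization (-0.035) and without TG 2, and ranged from -0.0098 to 0.13 without single hearts. Aldh1a1 turned without TG 1 and ranged from -0.012 to 0.41, and Aldh1a2 turned without WT 3 and without TG 2 and ranged from -0.14 to 0.037. Aldh1a7 passed the threshold with the processed signal alone (-2.36). Of 114 values of the 6 tested probes under alternatives, 100 kept their direction and their side of the threshold. Of 120 values listed for the 7 probes not tested, 110 kept their direction. With probes of a gene averaged, the value listed for the dim Rarb probe was that of the bright one (0.48). Low signal over background limits Crabp2, Rara, Rarg and the dim Rarb probe, and on some arrays Stra6 and Aldh1a7. The cause of these changes was not tested.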
